A study of Homo sapiens with 12 samples.

Results

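Doxorubicin plus IN10018 (the combination) was set against IN10018 alone in SK-OV-3 cells, an established human ovarian carcinoma line, which shows the doxorubicin effect while focal adhesion kinase (FAK) is inhibited. The comparison took 6 of the 12 libraries of the series. The 3 combination libraries came from cells kept for 24 h with doxorubicin at 300 nM together with IN10018 at 3 μM, and the 3 IN10018 libraries from cells kept for 24 h with IN10018 at 3 μM, so both groups carried the FAK inhibitor at the same dose. The other 6 libraries, 3 with 300 nM doxorubicin and 3 with DMSO at 24 h, gave the same drug effect without IN10018. All libraries were of 1 cell line, labelled diploid in the genotype field, at 1 dose and 1 time. Whether the 3 libraries per treatment are separate cultures is not stated in the labels. The p-values therefore cover no more than the variation among these libraries, which may be technical.

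Doxorubicin is an anthracycline that enters DNA and traps topoisomerase II on it, which leaves broken DNA. Cells answer such breaks through checkpoint kinases that hold the cell cycle and through NF-κB, a family of transcription factors that switch on inflammatory genes. FAK, the product of PTK2, is a kinase that passes signals from integrins at cell adhesions into the cell, and IN10018 blocks it.

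Levels are FPKM, fragments scaled to transcript length and library size. Rows that share a gene symbol were summed, out of 59391 symbols the 10663 that reached 1 FPKM in 3 or more of the 6 libraries were kept, and these were tested on log2(FPKM + 1) with limma. Depth was 9864751, 12890359 and 12901505 reads in the combination libraries, against 12139796, 8033951 and 11359201 reads in the IN10018 libraries. Small RNA genes held 40.7%, 22.9% and 27.3% of all FPKM in the combination libraries and 16.9%, 28.8% and 31.5% in the IN10018 libraries. One axis held 58.3% of the spread within the 4 treatments, and IN10018 library 1 and combination library 2 stood at one end of it while IN10018 library 2 and combination library 1 stood at the other. The part of this axis in the results was not tested beyond the fits without such libraries. Of the epithelial markers KRT7, KRT8, KRT18, KRT19, EPCAM, CDH1, ERBB2 and MUC1, 7 of 8 passed the level filter, while CDH1 (E-cadherin) stayed at 0.349, 0.254 and 0.381 FPKM with the combination and 0.135, 0.184 and 0.202 FPKM with IN10018. Of 6 fibroblast markers LUM and COL1A1 passed that filter and were not called, and all 6 summed to 9.56 to 11.96 FPKM with the combination and 12.48 to 15.42 FPKM with IN10018. Summed leukocyte markers came to 0.294 to 1.80 FPKM with the combination and 0.435 to 4.02 FPKM with IN10018, and endothelial and erythroid markers stayed at or below 1.05 FPKM in sum. In bulk RNA, fewer cells of one state and less RNA per cell cannot be told apart.

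Doxorubicin on top of IN10018 raised far more genes than it lowered on the FPKM scale. At a Benjamini-Hochberg adjusted p under 0.05, 1645 genes were higher (15.4% of those tested) and 152 lower (1.43%). Of the 1645, 626 rose at least 2-fold and 47 at least 4-fold, and 44 of the 152 fell at least 2-fold. The largest called increase was 5.47 on the log2 scale and the largest called decrease was -1.87, while the medians of the called genes were 0.90 and -0.85. All 3 combination libraries stood above all 3 IN10018 libraries in 1586 of the 1645 genes, and below them in 145 of the 152. Over all tested genes such a gap was present in 25% upwards and in 4.42% downwards.

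The balance of the directions depended on the scaling. The median log2 fold change of all tested genes was 0.21 and 7519 of 10663 were positive, whereas after scaling each library to median ratios the median was -0.03. With that scaling 983 genes were higher and 517 lower, so that 65.5% of the calls were higher, against 91.5% without it. The 983 were all among the 1645, and 148 of the 152 lowered genes were called again. Quantile normalization gave 1013 higher and 609 lower genes (62.5% higher), and a correction for GC content and transcript length gave 1496 and 1317 (53.2% higher). Changes below, given with their standard errors, are log2 fold changes of the combination over IN10018 on the log2(FPKM + 1) scale. They are to be read against the median of 0.21, and counts of called members against the 15.4% of all tested genes called higher and the 1.43% called lower. Calls of named genes that median-ratio scaling removes are given with the gene.

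**Figure D1:**
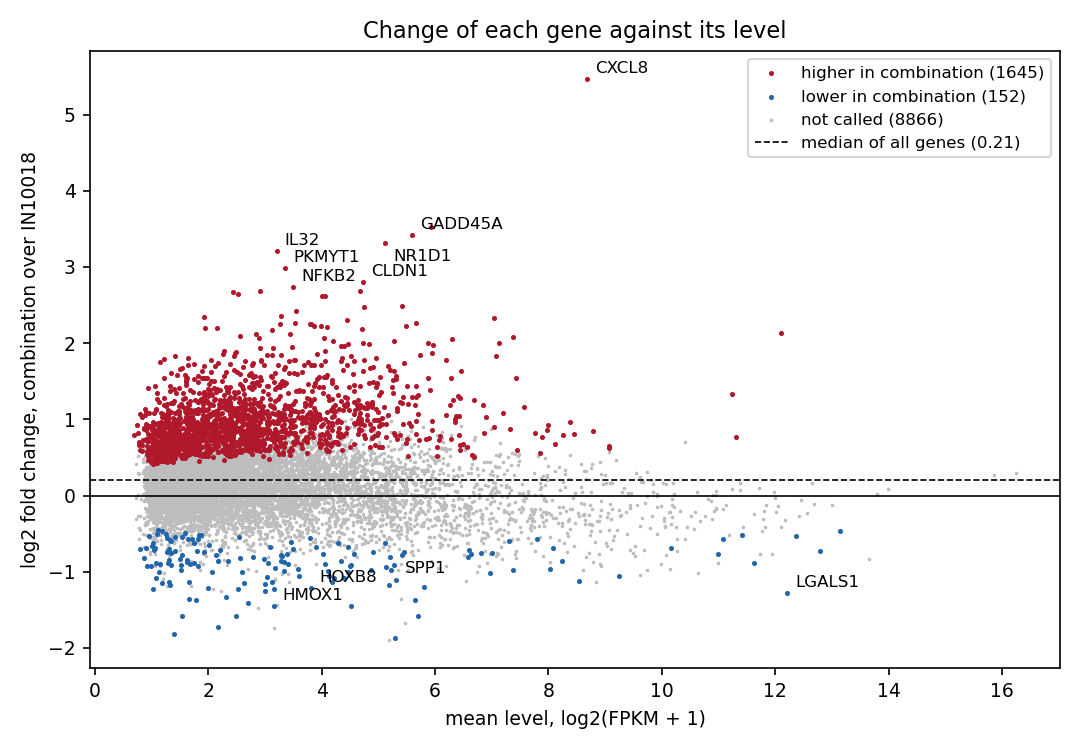
Each point is 1 of the 10663 tested genes, with its mean level over the 6 libraries on the x axis, as log2(FPKM + 1), and its log2 fold change of the combination over IN10018 on the y axis. The 1645 higher genes (red) reach 5.47 at CXCL8, the 152 lower genes (blue) reach -1.87, and the dashed line marks the median of all genes at 0.21.

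Inflammatory genes were among the largest increases, with CXCL8 first. CXCL8, which encodes interleukin-8, a chemokine that draws neutrophils, had 679, 582 and 1129.8 FPKM in the combination libraries, against 10.7, 13.6 and 29.1 FPKM in the IN10018 libraries. No value of one group came near the other, and the log2 fold change was 5.47 ± 0.32 (adjusted p = 1.25e-06). IL32, a proinflammatory cytokine gene, had 9.63, 22.6 and 14.97 FPKM in the combination libraries, against 0.847, 0.621 and 0.713 FPKM in the IN10018 libraries, a change of 3.20 ± 0.25 (adjusted p = 1.17e-05). CXCL2, another neutrophil chemokine, had 7.76, 6.16 and 11.0 FPKM in the combination libraries, against 0.118, 0.267 and 1.07 FPKM in the IN10018 libraries. IN10018 library 3 was the highest of its group and still lay far below every combination library, with a change of 2.67 ± 0.27 (adjusted p = 4.89e-05). CXCL2 had only 2, 3 and 17 reads in the IN10018 libraries, so the size of its fitted change depends on the added 1.

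Of the 33 chemokine and cytokine genes listed, 15 passed the level filter, and 12 of these were higher and 0 lower. Their median log2 fold change was 1.41, against 0.21 over all tested genes. IL6, a cytokine that signals through STAT3, had 4.51, 5.44 and 6.22 FPKM with the combination and 0.159, 0.180 and 0.425 FPKM with IN10018, a change of 2.35 ± 0.16. With only 4, 3 and 10 IL6 reads in the IN10018 libraries, the size of this change also depends on the added 1. CXCL1, a close relative of CXCL2, changed by 1.80 ± 0.26, and CXCL10, an interferon-induced chemokine that attracts T cells, by 1.79 ± 0.17. CXCL10 had 3.71, 1.78 and 2.37 FPKM with the combination and 0.0701, 0 and 0 FPKM with IN10018, so 2 IN10018 libraries had no read and its fitted change depends on the added 1. LIF, IL1A, CXCL3, IL18, IL11 and CSF1 were also higher, by 0.92 to 1.54, while CCL26, TNFSF9 and CXCL16 were not called (0.36, -0.01 and -0.19). The other 18 listed genes, TNF, CCL2, CCL5, CCL20 and IL1B among them, did not reach the level filter. All 12 were called again after median-ratio scaling. CXCL1, CXCL2 and CXCL3 are similar in sequence, so reads could have been divided between them.

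NF-κB subunits and their feedback inhibitors rose with the cytokines. Of 21 tested members 15 were higher and 0 lower, with a median of 1.03, and 12 were called after median-ratio scaling. NFKB2, which encodes the p100 precursor of the noncanonical pathway, had 10.2, 20.5 and 25.5 FPKM in the combination libraries, against 1.78, 1.53 and 2.09 FPKM in the IN10018 libraries, a change of 2.73 ± 0.26 (adjusted p = 3.41e-05). RELB, its usual partner, had 14.4, 35.2 and 31.4 FPKM with the combination and 3.39, 2.52 and 4.06 FPKM with IN10018, a change of 2.62 ± 0.29. TNFAIP3 encodes A20, an enzyme that shuts the pathway down, and changed by 1.68 ± 0.18 with 2.30, 3.35 and 4.63 FPKM with the combination and 0.295, 0.272 and 0.490 FPKM with IN10018. Combination library 1 was the lowest of its group in all of these genes, yet it stayed above every IN10018 library. The inhibitor genes NFKBIE (1.40 ± 0.38), NFKBIB (1.27 ± 0.23) and NFKBIA (1.12 ± 0.17) were higher as well, but NFKBIE overlapped between groups, with 3.30, 14.0 and 10.4 FPKM with the combination and 3.38, 1.69 and 2.42 FPKM with IN10018, and was not called after median-ratio scaling (adjusted p = 0.0948). NFKB1 (1.14), RELA (1.04), TRAF2 (1.12, adjusted p = 0.101 after median-ratio scaling) and MAP3K14 (0.96), the kinase that drives p100 processing, were higher, and IKBKB (0.35), IKBKG (0.16) and TRAF3 (0.28) were not called.

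Promoter letters of the chemokine genes are shown because several members share a κB motif near the start site. The windows are RefSeq promoters on GRCh38.p14, from 250 bases before to 50 after each start, and 7773 of the 10663 tested genes had one. Both strands were searched for the κB consensus or GGAATTTCC, 2 patterns that can overlap, and for TGANTCA, the AP-1 motif. Below, 120 bases are printed 5′ to 3′ on the gene's strand, from 147 to 28 bases before the start in CXCL8 and from 120 to 1 in the others, with the κB letters in capitals and, in CXCL8 only, the AP-1 letters as the first capitals. The stretches lie at chr4:73740422-73740541, plus strand (CXCL8), chr4:73869273-73869392, plus strand (CXCL1), chr4:74099196-74099315, minus strand (CXCL2), chr7:22727080-22727199, plus strand (IL6) and chr6:137867139-137867258, plus strand (TNFAIP3).
CXCL8: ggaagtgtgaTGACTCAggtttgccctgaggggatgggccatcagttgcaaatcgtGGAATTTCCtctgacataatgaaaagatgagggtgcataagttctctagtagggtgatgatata
CXCL1: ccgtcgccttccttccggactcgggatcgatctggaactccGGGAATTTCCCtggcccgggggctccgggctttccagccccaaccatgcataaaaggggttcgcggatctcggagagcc
CXCL2: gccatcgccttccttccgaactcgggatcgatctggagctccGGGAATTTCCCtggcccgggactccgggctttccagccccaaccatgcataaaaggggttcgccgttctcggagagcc
IL6: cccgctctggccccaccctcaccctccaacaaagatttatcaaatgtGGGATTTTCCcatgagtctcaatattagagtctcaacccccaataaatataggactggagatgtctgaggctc
TNFAIP3: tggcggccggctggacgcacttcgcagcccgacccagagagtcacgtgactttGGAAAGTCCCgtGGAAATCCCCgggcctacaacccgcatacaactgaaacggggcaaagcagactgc
The κB letters began 91 bases before the start in CXCL8, 79 in CXCL1, 78 in CXCL2 and 73 in IL6. They were present in 7 of 11 promoters of tested chemokine and cytokine genes (63.6%) and in 6 of 17 of the NF-κB list (35.3%), against 11% of all 27305 promoters. Among genes called higher the share was 13.2%, next to 13.1% of all tested genes, nearly the same share. A match is a description of these windows, not of binding.

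**Figure D2:**
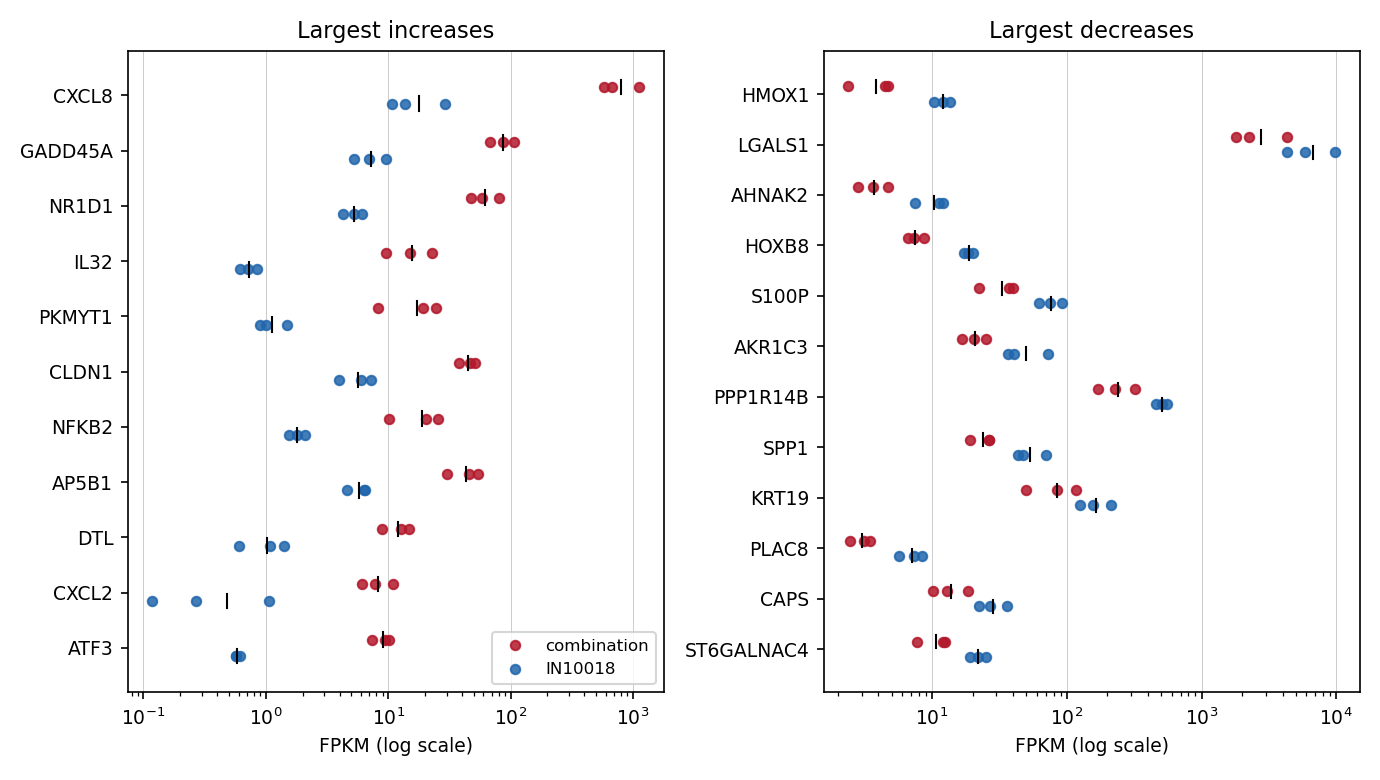
FPKM of each library on a log axis for the 11 largest increases (left) and the 12 largest decreases (right), with combination libraries in red above IN10018 libraries in blue and a black bar at each mean. CXCL8 stands at 582 to 1129.8 FPKM with the combination against 10.7 to 29.1 FPKM with IN10018, while LGALS1 has 1 combination library close to the lowest IN10018 library.

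AP-1 and immediate early factors, the first genes that stress and growth signals switch on, were higher in 14 of 18 tested members and lower in 0. Their median was 1.32, and 11 were called after median-ratio scaling. ATF3, a stress-induced transcription factor, had 10.2, 7.35 and 9.42 FPKM in the combination libraries, against 0.571, 0.616 and 0.566 FPKM in the IN10018 libraries, a change of 2.65 ± 0.16 (adjusted p = 1.44e-06). This gene had the narrowest spread of the 12 largest increases, with a standard error of 0.16. FOSL1 and JUN, partners in AP-1 dimers, changed by 2.30 ± 0.25 and 2.22 ± 0.21, and JUN had 18.7, 24.1 and 32.9 FPKM with the combination and 4.25, 3.97 and 5.30 FPKM with IN10018. EGR1 (1.88 ± 0.20), FOSL2 (1.85 ± 0.21), DUSP1 (1.71 ± 0.20), KLF6 (1.56 ± 0.24) and MYC (1.42 ± 0.21) were higher, and JUNB (0.33), ZFP36 (0.49), KLF2 (0.49) and DUSP4 (0.46) were not called. FOS, FOSB, EGR2 and EGR3 did not reach the level filter.

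Target genes of the DNA damage response, which halt the cycle, repair DNA or start death, rose in part. Of 27 tested, 12 were higher and 0 lower, with a median of 0.59, and 6 were called after median-ratio scaling. GADD45A, a DNA damage gene that slows the cell cycle, had 86.7, 67.3 and 107 FPKM in the combination libraries, against 5.22, 6.98 and 9.60 FPKM in the IN10018 libraries, the second largest increase among the protein-coding genes that the naming rule took, at 3.42 ± 0.23. PIDD1, which builds a caspase-2 activating complex, changed by 2.42 ± 0.23, and CDKN1A, which encodes the cyclin-dependent kinase inhibitor p21, had 12.2, 26.9 and 26.9 FPKM with the combination and 4.43, 2.53 and 4.01 FPKM with IN10018, a change of 2.25 ± 0.29. Other established targets gave smaller values that were not called, among them BAX (0.07), RRM2B (0.07), CCNG1 (-0.09) and PHLDA3 (-0.29). MDM2, FAS, SESN1, BTG2 and ZMAT3 did not reach the level filter. PMAIP1, the gene of the death-promoting BCL2 relative NOXA, changed by 1.03 ± 0.18.

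Most replication genes were higher. Of 46 tested licensing and fork genes 38 were higher and 0 lower, with a median of 1.12, and 36 were called after median-ratio scaling. DTL, part of a ubiquitin ligase that removes CDT1, had 12.7, 8.84 and 14.7 FPKM in the combination libraries, against 0.602, 1.09 and 1.39 FPKM in the IN10018 libraries, a change of 2.68 ± 0.22 (adjusted p = 1.35e-05). The loading factors CDT1 (2.21 ± 0.24) and CDC6 (2.09 ± 0.25), which place the replicative helicase on origins, were higher, and CDC6 had 7.67, 7.26 and 10.4 FPKM with the combination and 0.667, 0.937 and 2.27 FPKM with IN10018. POLD1, the catalytic subunit of DNA polymerase delta, had 11.0, 25.5 and 31.0 FPKM with the combination and 3.66, 3.28 and 3.69 FPKM with IN10018, a change of 2.26 ± 0.29. MCM2, MCM3, MCM4, MCM5 and MCM7, genes of the helicase, and MCM10 were higher by 1.06 to 1.84. The helicase gene MCM6 was not called (0.52, adjusted p = 0.19). FEN1 (1.71 ± 0.18), PRIM1 (1.65 ± 0.17), PCNA (0.91 ± 0.21) and LIG1 (1.39 ± 0.18), which copy and join the lagging strand, were higher too. The members without a call also included ORC2 (0.37), ORC4 (-0.05), RPA1 (0.18) and POLD2 (0.13).

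E2F1, the transcription factor that opens S phase, had 33.9, 88.8 and 95.9 FPKM in the combination libraries, against 11.2, 9.39 and 12.7 FPKM in the IN10018 libraries, a change of 2.48 ± 0.34 (adjusted p = 0.00034). Combination library 1 had less than the other 2 combination libraries, which also held for POLD1 and TK1. Of 23 tested E2F, G1/S and deoxynucleotide genes 12 were higher and 0 lower (median 0.84, and 12 after median-ratio scaling). RRM2 (1.88 ± 0.21) and RRM1 (1.38 ± 0.31), the subunits of ribonucleotide reductase, and TK1 (1.84 ± 0.37) and TYMS (1.62 ± 0.23), which supply thymidine nucleotides, were higher. CDK4 (0.13), CDK6 (-0.04), RB1 (0.37), TFDP1 (0.34) and DUT (0.12) were not called.

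Genes of G2 and mitosis followed. Of 51 tested, 37 were higher and 0 lower, all 51 had a positive value, and the median was 1.01, with 33 called after median-ratio scaling. PKMYT1, a kinase that holds CDK1 inactive, had 8.19, 19.1 and 24.4 FPKM in the combination libraries, against 0.894, 1.00 and 1.49 FPKM in the IN10018 libraries, a change of 2.99 ± 0.30 (adjusted p = 4.74e-05). CDK1 itself had 57.7, 53.3 and 63.4 FPKM with the combination and 15.4, 20.3 and 21.6 FPKM with IN10018, a change of 1.57 ± 0.18. KIF2C (1.78 ± 0.26), TPX2 (1.65 ± 0.30) and TTK (1.59 ± 0.26), genes of the spindle and its checkpoint, were higher. IN10018 library 1 was the lowest of its group in CDK1, KIF2C, TPX2 and TTK. The mitotic cyclin gene CCNB1 was not called (0.36 ± 0.19), nor were PLK1 (0.24 ± 0.19), KIF20A (0.12 ± 0.20), BUB1 (0.44 ± 0.26) and WEE1 (0.45 ± 0.19). TOP2A, the topoisomerase II form of dividing cells and a target of doxorubicin, had 43.0, 38.4 and 50.1 FPKM with the combination and 9.46, 18.8 and 20.8 FPKM with IN10018, a change of 1.43 ± 0.30 (adjusted p = 0.00525), whereas TOP2B, the other form, had 11.6, 7.92 and 10.2 FPKM with the combination and 6.83, 13.9 and 13.3 FPKM with IN10018 and was not called (-0.13 ± 0.29), although it was lower with the GC and length correction (-0.43, adjusted p = 0.0306). In a list of doxorubicin targets, transporters and metabolising enzymes, which leaves out the AKR1C genes described with the NRF2 list, TOP2A was the 1 called gene of 11 tested, next to 15.4% of all tested genes.

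Letters bound by cell cycle factors were searched in the same windows, because these groups held the densest matches. E2F letters were TTTCCCGC or TTTGGCGC, and the G2 and mitosis motifs were CCAAT, bound by NF-Y, and TTTGAA, the cell cycle genes homology region (CHR), on either strand. Stretches of 120 bases are given below, from 171 to 52 bases before the start in CDK1 and from 120 to 1 in the others. Capitals mark the E2F letters in E2F1, DTL and CDT1 and the CCAAT and CHR letters in CDK1 and KIF11, and the CCAAT letters that E2F1 and DTL also hold are left in lower case. They lie at chr20:33686386-33686505, minus strand (E2F1), chr1:212035628-212035747, plus strand (DTL), chr16:88803669-88803788, plus strand (CDT1), chr10:60778160-60778279, plus strand (CDK1) and chr10:92593010-92593129, plus strand (KIF11).
E2F1: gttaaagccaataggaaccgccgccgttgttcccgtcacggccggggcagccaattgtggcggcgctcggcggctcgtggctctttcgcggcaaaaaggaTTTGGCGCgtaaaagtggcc
DTL: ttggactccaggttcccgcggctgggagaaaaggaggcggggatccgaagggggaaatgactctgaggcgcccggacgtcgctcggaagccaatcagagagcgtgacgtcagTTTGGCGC
CDT1: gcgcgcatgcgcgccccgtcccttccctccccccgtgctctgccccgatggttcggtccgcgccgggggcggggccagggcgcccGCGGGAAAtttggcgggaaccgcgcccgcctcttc
CDK1: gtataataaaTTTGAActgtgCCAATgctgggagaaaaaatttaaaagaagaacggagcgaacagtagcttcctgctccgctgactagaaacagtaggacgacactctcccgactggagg
KIF11: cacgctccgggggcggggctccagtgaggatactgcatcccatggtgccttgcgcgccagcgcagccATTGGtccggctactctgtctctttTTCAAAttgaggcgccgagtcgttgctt
E2F1, DTL and CDT1 carry E2F letters that begin 20, 8 and 35 bases before the start, and CDK1 and KIF11 (higher by 1.25 ± 0.29) carry both other motifs. E2F letters were in 16 of 40 promoters of tested licensing and fork genes (40%), against 2.31% of all promoters, 4.1% of tested genes and 6.61% of genes called higher. CHR and CCAAT letters were each in 28 of 41 promoters of the G2 and mitosis list (68.3%), against 15.4% and 35.7% of all promoters. The shares of CHR and CCAAT letters were 9.2% and 37.5% of tested genes, and 12.8% and 43.6% of genes called higher. In the licensing and fork list they were 2.5% and 57.5%, so CCAAT letters were common there too. Like the κB shares of lists above, these list shares cover tested members, called or not, of lists written from general knowledge. They therefore describe the lists and not the change in this comparison. A match is again no measure of binding.

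DNA break signalling and repair genes were higher in 17 of 35 tested members and lower in 0, with a median of 0.61 and 14 higher and 1 lower call after median-ratio scaling. EXO1, a nuclease that trims DNA ends, had 3.28, 2.89 and 3.82 FPKM with the combination and 0.299, 0.301 and 0.511 FPKM with IN10018, a change of 1.66 ± 0.15. BRCA1, a gene of repair by homologous recombination, changed by 1.54 ± 0.22. FANCG (1.21 ± 0.33) was not called after median-ratio scaling (adjusted p = 0.137). The end-joining genes XRCC5 (0.03), XRCC6 (-0.26), LIG4 (0.36) and PRKDC (0.45) were not called. Of 36 tested replication-dependent histone genes 5 were higher, near the 15.4% of all tested genes, and 1 lower, while median-ratio scaling gave 4 and 2 and quantile normalization 4 and 4. H4C3 was by far the most abundant of those called, with 11298, 5146 and 4786 FPKM with the combination and 783, 1475 and 2819.6 FPKM with IN10018, a change of 2.14 ± 0.40. H4C1 (1.52 ± 0.29), H2AC4 (1.27 ± 0.31), H3C11 (1.12 ± 0.27) and H4C5 (0.74 ± 0.23, adjusted p = 0.185 after median-ratio scaling) were higher and H4C11 was lower (-0.87 ± 0.22, not called with the GC and length correction). H4C1 had 15, 13 and 10 reads with the combination and 4, 1 and 1 reads with IN10018. H2AC4 had 16, 12 and 15 reads against 2, 2 and 5, and H3C11 had 19, 16 and 16 reads against 2, 3 and 11. Histone genes are near-identical copies, and the sources used here do not give how their reads were divided, so these values are uncertain.

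NR1D1, which encodes the clock repressor REV-ERBα, had 47.4, 58.8 and 80.6 FPKM in the combination libraries, against 4.29, 6.15 and 5.25 FPKM in the IN10018 libraries, a change of 3.32 ± 0.22 (adjusted p = 2.30e-06). It led the clock genes, of which 6 of 14 were higher and 0 lower, with NFIL3 (1.61 ± 0.23), CIART (1.26 ± 0.16), CRY1 (0.94 ± 0.25), BHLHE41 (0.80 ± 0.18) and ARNTL (0.79 ± 0.15). CLOCK (0.02), DBP (0.08) and PER3 (0.39) were not called. All 6 were called after median-ratio scaling. Among the remaining large increases, CLDN1, a tight junction gene, had 46.2, 38.1 and 51.2 FPKM with the combination and 3.97, 5.93 and 7.23 FPKM with IN10018, a change of 2.80 ± 0.26. AP5B1, a subunit of an adaptor complex of late endosomes, changed by 2.69 ± 0.22 with 30.5, 46.0 and 54.0 FPKM with the combination and 6.41, 4.64 and 6.33 FPKM with IN10018.

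Focal adhesion and integrin genes belong to the structures in which the kinase inhibited in both groups acts. PTK2 had 3.38, 2.61 and 3.69 FPKM with the combination and 1.94, 3.57 and 3.92 FPKM with IN10018, and its groups overlapped (0.06 ± 0.23, adjusted p = 0.902). Of 30 tested focal adhesion and integrin genes 2 were higher, next to 15.4% of all tested genes, and 0 lower, while median-ratio scaling gave 2 in each direction. Their median of 0.12 turned to -0.13 after median-ratio scaling and -0.12 after quantile normalization. The 2 were BCAR1, a scaffold that FAK and SRC phosphorylate, with 6.06, 17.4 and 20.5 FPKM with the combination and 4.36, 2.91 and 3.26 FPKM with IN10018 (1.66 ± 0.33), and RHOB, a small GTPase gene that DNA damage induces (1.19 ± 0.25). Of 20 tested YAP and TEAD target genes 7 were higher and 0 lower (median 0.54), led by ANKRD1 (1.83 ± 0.18) and CCN1 (1.60 ± 0.20), and after median-ratio scaling 5 were higher and 2 lower. ANKRD1 had 61, 69 and 95 reads with the combination and only 2, 4 and 4 reads with IN10018. CCN1, a matricellular protein gene, had 14.4, 14.2 and 19.7 FPKM with the combination and 3.54, 4.99 and 5.37 FPKM with IN10018. F3 (1.00 ± 0.31) was not called after median-ratio scaling (adjusted p = 0.0782), and lost its call in 16 of 25 other settings in all. In the extracellular matrix list 4 of 33 were higher, close to the 15.4% of all tested genes, and 2 lower, but median-ratio scaling gave 3 higher and 6 lower and quantile normalization 3 and 7. Among the higher genes was PLAU, the urokinase gene, with 39.1, 39.8 and 55.3 FPKM with the combination and 11.9, 12.1 and 15.3 FPKM with IN10018 (1.69 ± 0.20). COL6A2 (1.18 ± 0.31) lost its call after median-ratio scaling (adjusted p = 0.0892) and in 10 of 24 other settings in all.

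Calls among genes of immune recognition and danger signalling were near or below the 15.4% of all tested genes called higher, so their counts are a description only. Of 21 tested interferon-stimulated genes 4 were higher and 0 lower (3 and 0 after median-ratio scaling), among them IRF7 (1.77 ± 0.26), OAS3 (1.24 ± 0.17) and IRF1 (1.12 ± 0.16). ISG15 (0.55), IFIT1 (-0.39), IFI6 (0.19) and BST2 (-0.33) were not called. Of 17 MHC class I and peptide loading genes 1 was higher, TAP2, a subunit of the peptide transporter of the endoplasmic reticulum (0.57 ± 0.15). HLA-B (0.92 ± 0.36) and B2M (0.02 ± 0.21) were not called. In the danger signal list 2 of 14 were higher and 0 lower, CXCL10 and HMGB1, but 1 was higher and 3 lower after median-ratio scaling, where the list median of 0.23 turned to -0.08, and 1 and 2 after quantile normalization. CALR, the calreticulin gene, had 45.5, 57.0 and 68.1 FPKM with the combination and 41.3, 38.8 and 43.6 FPKM with IN10018, which was not called (0.44 ± 0.19, adjusted p = 0.135). HMGB1, a nuclear protein that acts as a danger signal outside the cell, had 74.4, 74.3 and 80.5 FPKM with the combination and 51.2, 52.3 and 55.3 FPKM with IN10018. Its call (0.52 ± 0.16, adjusted p = 0.0415) was lost after median-ratio scaling (adjusted p = 0.462) and in 17 of 25 other settings in all.

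In the ATF4 and unfolded protein response list 5 of 22 were higher and 1 lower (3 and 1 after median-ratio scaling), next to 15.4% and 1.43% of all tested genes. With the GC and length correction 4 were higher and 5 lower. The list median of 0.16 turned to -0.14 after median-ratio scaling and to -0.17 with the GC and length correction. PPP1R15A (1.71 ± 0.21), SLC3A2 (1.63 ± 0.27), XBP1 (1.21 ± 0.17) and DDIT3 (1.20 ± 0.26, adjusted p = 0.117 after median-ratio scaling) were higher. ATF4 had a value of -0.76 ± 0.39 that was not called, and DDIT4, an inhibitor of the growth kinase mTORC1, was lower (-0.92 ± 0.24). Among death receptor and BCL2 family genes 2 of 21 were higher and 1 lower, which is no more than a description against the same shares. Median-ratio scaling gave 2 and 2, and the GC and length correction 2 and 4. TNFRSF12A, the receptor of the cytokine TWEAK, was abundant with 3212, 3627 and 3537 FPKM with the combination and 1295, 1288 and 1548 FPKM with IN10018 and higher by 1.33 ± 0.17, while TNFRSF10D, a decoy receptor of TRAIL, was lower (-0.75 ± 0.20).

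**Figure D3:**
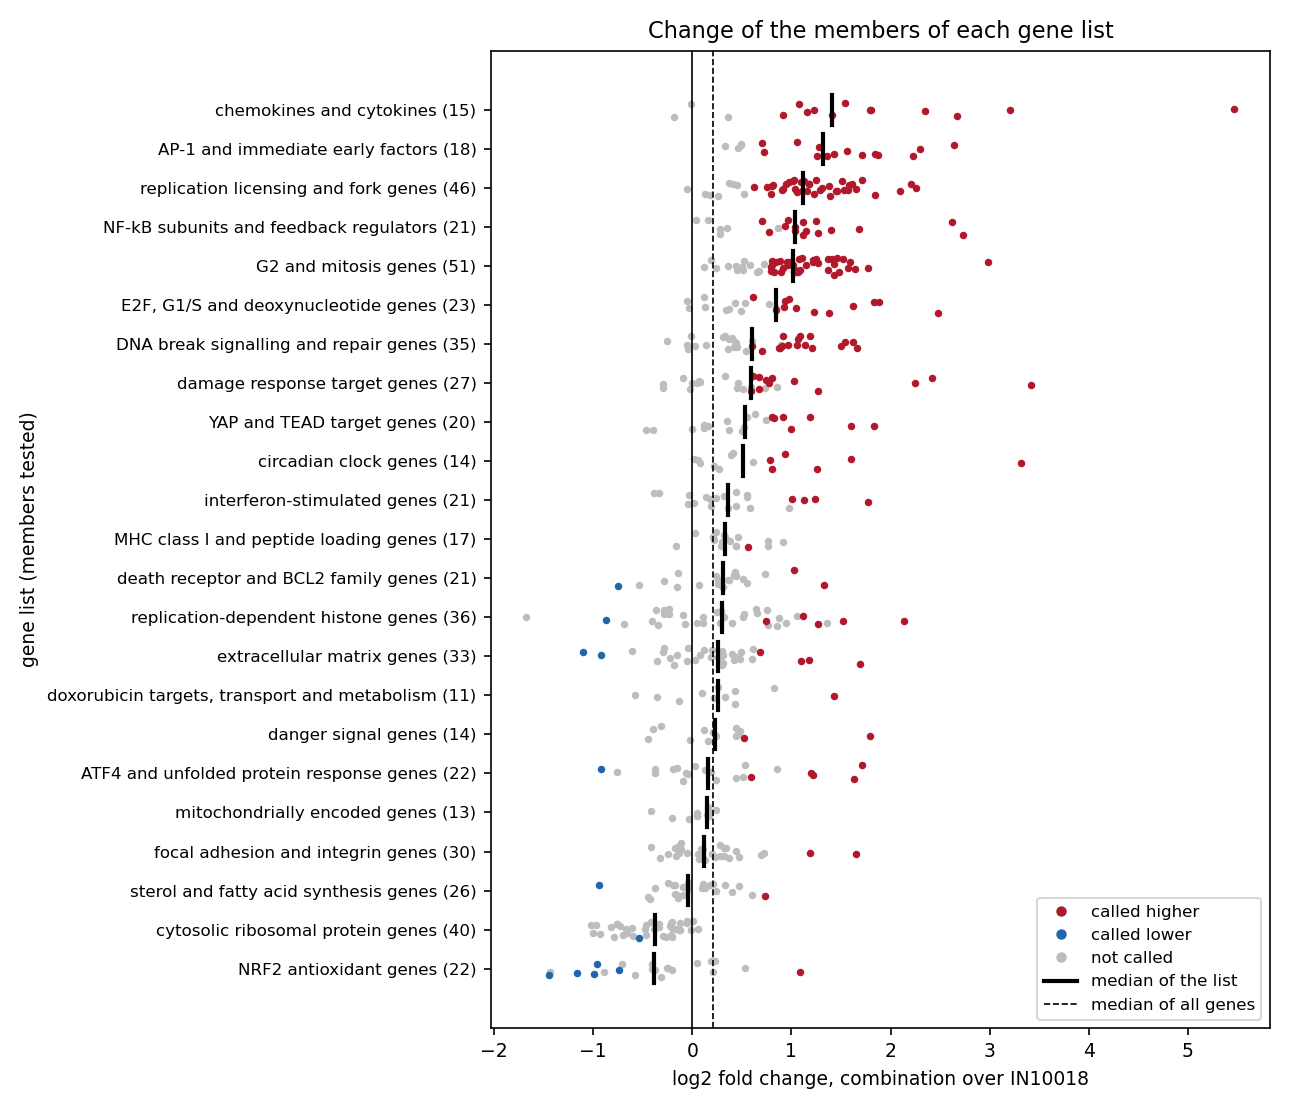
Log2 fold changes of the combination over IN10018 for the tested members of the 23 gene lists, 1 point per gene, ordered by list median (black bar), with genes called higher in red, called lower in blue and not called in grey. Chemokine and cytokine genes have the highest median (1.41) and NRF2 antioxidant genes the lowest (-0.39), and the dashed line is the median of all genes (0.21).

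Lowered genes were fewer. HMOX1, the heme oxygenase that degrades heme and a classic target of the oxidative stress factor NRF2, had 2.38, 4.72 and 4.45 FPKM in the combination libraries, against 11.97, 10.4 and 13.6 FPKM in the IN10018 libraries. It was the largest decrease among the genes described, at -1.45 ± 0.22 (adjusted p = 0.000593), and stayed called under all 25 other settings. Of 22 tested NRF2 antioxidant genes 5 were lower and 1 higher, with a median of -0.39, and 7 were lower after median-ratio scaling. AKR1C3, an aldo-keto reductase that reduces steroids and also anthracyclines, had 16.8, 25.3 and 20.5 FPKM with the combination and 72.8, 36.3 and 40.4 FPKM with IN10018 (-1.17 ± 0.30). AKR1C1 (-0.99 ± 0.27, not called with the GC and length correction), its close relative, and PRDX1 (-0.96 ± 0.28), a peroxide-reducing enzyme gene with 155, 209 and 163 FPKM with the combination and 429, 285 and 319 FPKM with IN10018, were lower, and so was TALDO1 (-0.74 ± 0.20). IN10018 library 1 was the highest of its group in AKR1C3, AKR1C1 and PRDX1, and the AKR1C genes are similar enough that reads could be divided between them. The AKR1C1 and PRDX1 calls were each lost in 7 of 25 other settings, and the AKR1C3 call in 4. NQO1 (-0.58 ± 0.30), FTL (-0.89 ± 0.43) and AKR1C2 (-1.44 ± 0.48) were not called, OSGIN1 was higher (1.09 ± 0.20), and NFE2L2, the gene of NRF2, was not called (0.53 ± 0.26).

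LGALS1, the galectin-1 gene, had 1807, 4296 and 2246 FPKM in the combination libraries, against 9853, 4317 and 5861 FPKM in the IN10018 libraries. The highest combination library nearly met the lowest IN10018 library, and the change of -1.28 ± 0.39 (adjusted p = 0.0379) was not called after median-ratio scaling (adjusted p = 0.0542). SPP1, which encodes the secreted glycoprotein osteopontin, had 19.3, 26.6 and 26.4 FPKM with the combination and 70.3, 43.3 and 47.0 FPKM with IN10018, a change of -1.10 ± 0.24. S100P, a calcium-binding protein gene, had 40.0, 37.4 and 22.4 FPKM with the combination and 75.4, 91.7 and 62.4 FPKM with IN10018, a change of -1.20 ± 0.25. HOXB8, a homeobox gene, had 6.58, 8.65 and 7.29 FPKM with the combination and 18.4, 17.3 and 20.2 FPKM with IN10018, a change of -1.21 ± 0.18 with the smallest standard error of the 12 largest decreases (adjusted p = 0.000463). AHNAK2 (-1.25 ± 0.26), a very large scaffold protein gene, PPP1R14B (-1.12 ± 0.24), a phosphatase inhibitor gene, and PLAC8 (-1.01 ± 0.19) were lower without overlap. KRT19 (-1.01 ± 0.29), a simple epithelial keratin gene, CAPS (-1.01 ± 0.28) and ST6GALNAC4 (-0.99 ± 0.22), a sialyltransferase gene, completed the 12 largest decreases. The LGALS1 call was lost in 12 of 25 other settings, the KRT19 call in 8, the CAPS call in 4 and the ST6GALNAC4 call in 0. MFAP5, a microfibril protein gene of the matrix list, was lower by a similar size (-0.92 ± 0.19).

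SCD, the desaturase that makes monounsaturated fatty acids, had 22.4, 20.1 and 26.6 FPKM with the combination and 36.4, 51.6 and 47.9 FPKM with IN10018. Every combination library was below every IN10018 library, and the change was -0.94 ± 0.23 (adjusted p = 0.0123). In the sterol and fatty acid list it was the 1 lower gene of 26, beside MVD, which was higher (0.74 ± 0.21) but not after median-ratio scaling (adjusted p = 0.203), and with that scaling 0 were higher and 5 lower. INSIG1, which retains the sterol sensor in the endoplasmic reticulum, had 3.25, 2.87 and 4.08 FPKM with the combination and 3.25, 5.42 and 5.69 FPKM with IN10018 and was not called (-0.38 ± 0.19, adjusted p = 0.201), but was called lower after median-ratio scaling (-0.62, adjusted p = 0.0103). Cytosolic ribosomal protein genes had a median of -0.38, and only 2 of 40 had a positive value. Of the 40, 0 were called higher and 1 lower, RPL35 (-0.54 ± 0.15). The RPL35 call was lost after quantile normalization and in 9 of 25 other settings in all. Lower calls in the list were 2 after median-ratio scaling, 0 after quantile normalization and 11 with the GC and length correction. With doxorubicin over DMSO the list median was -0.02. Mitochondrially encoded genes had 0 calls among 13 and a median of 0.15, which turned to -0.17 after median-ratio scaling.

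The same drug effect without IN10018, doxorubicin over DMSO, came from 6 other libraries in the same fit. There 657 genes were higher (6.16%) and 226 lower (2.12%). Of genes higher with the combination over IN10018, 546 were also higher with doxorubicin over DMSO, which is 33.2% of the 1645 and 83.1% of the 657. Of the lowered genes 57 were shared, 37.5% of the 152 and 25.2% of the 226. The 1645 had a median of 0.90 with IN10018 and 0.52 without it, where 1611 of them were positive. The 152 had a median of -0.85 with IN10018 and -0.51 without it, where 132 of them were negative. The genes were chosen by the comparison with IN10018, a choice that enlarges its medians by an amount that was not measured. Over all tested genes the median was 0.21 with IN10018 and -0.01 without it.

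The CXCL8 change of 5.47 ± 0.32 with IN10018 stood beside 4.29 ± 0.32 without it, where CXCL8 had 713, 754 and 624 FPKM with doxorubicin and 33.7, 32.5 and 37.6 FPKM with DMSO. GADD45A gave 3.42 ± 0.23 with IN10018 and 2.69 ± 0.23 without it, and NR1D1 gave 3.32 ± 0.22 and 2.93 ± 0.22. All of these were called in both comparisons. CXCL2 gave 2.67 ± 0.27 with IN10018 and 1.21 ± 0.27 without it, a difference of 1.46 ± 0.38 (adjusted p = 0.676). This difference rests on 2, 3 and 17 CXCL2 reads in the IN10018 libraries. S100P gave -1.20 ± 0.25 with IN10018 and -0.06 ± 0.25 without it, where S100P had 57.0, 80.2 and 58.0 FPKM with doxorubicin and 61.8, 63.6 and 76.4 FPKM with DMSO, and the difference of -1.14 ± 0.35 had an adjusted p of 0.676. CDK1 had 62.2, 53.7 and 58.2 FPKM with doxorubicin and 37.7, 37.2 and 37.7 FPKM with DMSO. Its combination libraries had 57.7, 53.3 and 63.4 FPKM, but its IN10018 libraries had 15.4, 20.3 and 21.6 FPKM, below DMSO. The change of CDK1 over IN10018 is thus taken from a lower level than that of DMSO. How many genes share this was not counted. In the G2 and mitosis list 37 genes were higher and 0 lower with IN10018, next to 4 and 1 without it. The list medians were 1.01 and 0.38. This does not show that the effects differed, because the difference itself was called in 0 of 10663 genes with limma, where the smallest adjusted p was 0.369. At an unadjusted p under 0.05 the difference was above 0 in 506 genes and below 0 in 128, its median was 0.25, and after median-ratio scaling 162 were above and 302 below 0, with a median of 0.03. Its median standard error was 0.30, so a difference of that size was not detectable with 3 libraries per treatment. The fit to recovered reads with voom also called 0 (598 at an unadjusted p under 0.05).

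**Figure D4:**
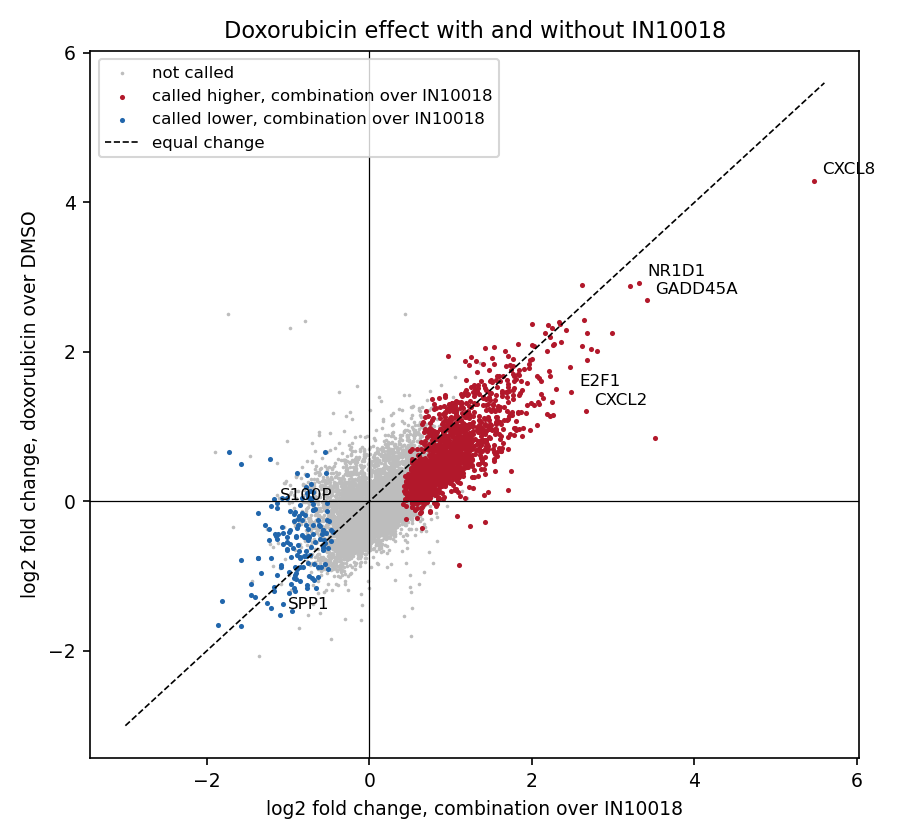
Log2 fold change of the combination over IN10018 (x axis) against doxorubicin over DMSO (y axis) for the 10663 tested genes, with genes called higher (red) or lower (blue) in the x-axis comparison and a dashed line of equal change. Of the 1645 red genes 1611 lie above 0 on the y axis, and of the 152 blue genes 132 lie below 0.

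How many genes were called depended on single libraries. Without combination library 3, 618 genes were higher and 62 lower, and without combination library 2, 1068 were higher. Without IN10018 library 2, 93 were lower, and without IN10018 library 3, 92. With the 3 libraries that stood apart from their groups left out (IN10018 library 1, combination library 2 and DMSO library 2), chosen once the data had been seen, there were 1756 higher and 299 lower genes. Of the 99 called genes that the naming rule took, 69 kept their call and direction under every other setting in which they were tested, and 0 of the 99 changed direction in these settings.

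**Figure D5:**
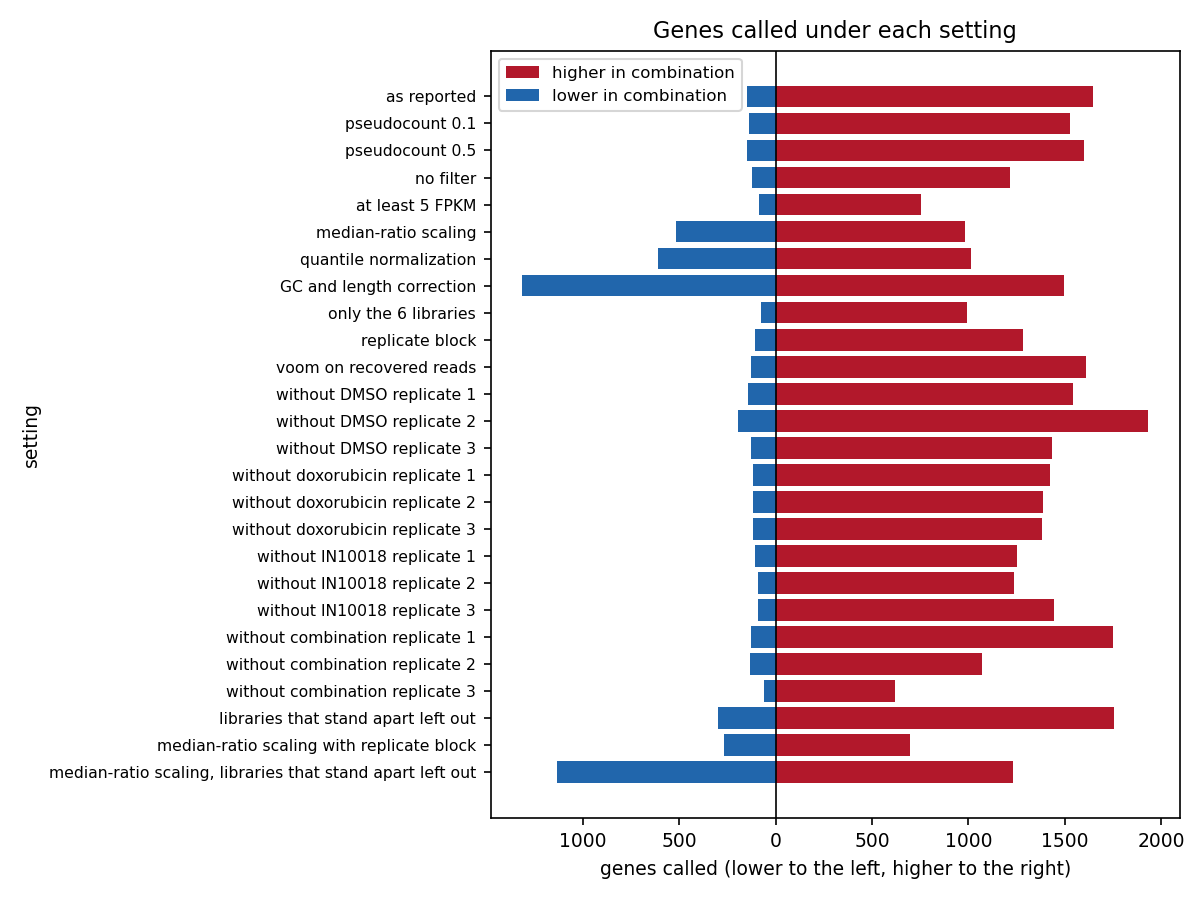
Number of genes called in the combination against IN10018 under each setting, with genes higher in the combination to the right (red) and lower to the left (blue). The fit as reported gives 1645 and 152, median-ratio scaling 983 and 517, the GC and length correction 1496 and 1317, and leaving out combination library 3 gives 618 and 62.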

How the data were processed

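The authors extracted total RNA, built strand-directional libraries and, per the methods, used FASTQC, TopHat and Cuffdiff. Cufflinks and hg38 are named in addition by the submitters' processing notes. The sources used here give neither versions nor the annotation nor the program that wrote the values. The deposited FPKM values cover 60623 Ensembl IDs per library (58516 in GENCODE release 29) and were not scaled further between libraries. In each of the 24090 genes with values above 0 in 3 or more libraries they stood in whole-number ratios (relative tolerance 3e-12), which gave whole reads and the depth of each library. Libraries of one treatment differed beyond counting noise (chi-square per degree of freedom 7.33 to 96.2).

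Rows of the 93 shared symbols were summed. limma 3.58.1 in R 4.3.3 (eBayes with a trend) fitted log2(FPKM + 1) of all 12 libraries as 4 groups, with 8 residual degrees of freedom. Tests were two-sided, with Benjamini-Hochberg adjustment over the 10663 genes. The error given with a log2 fold change is its standard error. The fit was tested on simulated data. Alternatives were pseudocounts of 0.1 and 0.5, no filter and 5 FPKM, median-ratio, quantile and GC and length scaling, only the 6 libraries, a replicate block, voom on recovered reads, and each library left out.

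Named genes were the 12 largest increases and decreases among called protein-coding genes with a mean of at least 5 FPKM in either group and no overlap, up to 5 called members of each of 23 lists, and members a statement needs. Some genes that this rule took are not reported here. Other members named with values stand for their list and were chosen after their values were seen. The comparison, the members and the lists were chosen with earlier results of these data known. Promoters are from RefSeq (GRCh38.p14). Tables and figures were made with pandas 2.3.3, numpy 2.4.6 and matplotlib 3.10.9 in Python 3.11.15.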

Additional observations from a re-analysis of the deposited data

Results flagged for a closer look

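In 2 named genes the libraries moved in opposite directions under doxorubicin with and without IN10018, without overlap in either comparison. RPL35, a ribosomal protein gene, had 4107, 4821 and 4026 FPKM with the combination and 5819, 6909 and 6035 FPKM with IN10018, but 6427, 7374 and 7034 FPKM with doxorubicin and 4623, 5819 and 5576 FPKM with DMSO, a difference of the effects of -0.92 (adjusted p = 0.676 with limma). CALR had 45.5, 57.0 and 68.1 FPKM with the combination and 41.3, 38.8 and 43.6 FPKM with IN10018, but 38.1, 38.3 and 33.3 FPKM with doxorubicin and 47.8, 41.1 and 39.6 FPKM with DMSO, a difference of 0.66 (adjusted p = 0.676 with limma). Neither difference passed the test over all genes. How many of the 10663 tested genes show the same pattern was not counted, so these 2 genes are a description only. In the combination over IN10018 alone, a gap without overlap was present in 25% of tested genes upwards and 4.42% downwards.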

How the results depend on the processing

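Against 1645 higher and 152 lower genes, counts were 753 and 89 with a minimum of 5 FPKM (fewer genes tested), 983 and 517 with median-ratio scaling, 1013 and 609 with quantile normalization, 990 and 76 with only the 6 libraries, and 1317 lower with the GC and length correction. Leaving out 1 library each gave 618 to 1934 higher and 62 to 198 lower genes. Replicate numbers did not pair the combination and IN10018 libraries. Correlations of same-numbered libraries, taken on the deviation of each gene from its treatment mean and not on levels, were -0.59, -0.70 and 0.24. Same-numbered combination and DMSO libraries gave 0.51, 0.75 and 0.10, and IN10018 and DMSO libraries -0.71, -0.69 and 0.34. A replicate block gave 1285 and 107. Of the settings chosen after seeing the data, leaving out the 3 libraries that stood apart gave 299 lower, median-ratio scaling with the replicate block 696 and 271, and median-ratio scaling without those 3 libraries 1138 lower. For doxorubicin over DMSO the 883 calls became 491 without a filter, 558 at 5 FPKM, 1416 with quantile normalization, 2401 with the GC and length correction, 566 with the replicate block, 369 to 1089 with 1 library left out, 2979 without the 3 libraries that stood apart and 3657 with median-ratio scaling as well. The difference of the effects, with 0 calls, had 2 without a filter, 1 with median-ratio scaling, 1 with quantile normalization and 184 (3 above and 181 below 0) with median-ratio scaling without those 3 libraries. The cause was not tested. PTK2, not called, changed sign with median-ratio scaling (-0.18, also with the replicate block), quantile normalization (-0.23), the GC and length correction (-0.20), without the libraries that stood apart (-0.065) and with median-ratio scaling as well (-0.26), and gave -0.17 to 0.20 with 1 library left out. TOP2B, not called, gave -0.43 to 0.033 with 1 library left out, and was called lower with the GC and length correction (-0.43, adjusted p = 0.0306) and with median-ratio scaling without the 3 libraries (-0.52, adjusted p = 0.049). Depth limits low genes, and FPKM near 1 are pulled towards no change by the added 1.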

Other observations

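Noncoding and unannotated genes made up 83 of the 152 lowered genes (54.6%), against 116 of the 1645 higher genes (7.05%) and 13.6% of all genes tested. They were counted but not described, since FPKM of short and repeated genes are uncertain.

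Among protein-coding genes the share called higher with the combination over IN10018 varied with the length of the gene on the genome (GENCODE release 29). It was 19.5% of 1833 genes up to 10 kb, 22.05% of 2735 genes from 10 to 30 kb, 15.04% of 3125 genes from 30 to 100 kb, 6.74% of 1320 genes from 100 to 300 kb and 4.46% of 202 longer genes. The median span was 21082 bases among higher genes and 13752 among lower genes, against 30535 among all protein-coding genes tested. Over the same classes the median log2 fold change was 0.20, 0.29, 0.25, 0.16 and 0.08 with the combination over IN10018, and 0.14, 0.05, -0.05, -0.13 and -0.21 with doxorubicin over DMSO. After median-ratio scaling the medians of the combination over IN10018 were -0.07, 0.04, 0.01, -0.05 and -0.10. With the GC and length correction they were -0.06, 0.003, -0.02, -0.07 and -0.12. These are descriptions across genes, which are not independent replicates. The part of level was not tested, nor that of GC content beyond the correction.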
